A study of Homo sapiens with 26 samples.

Results

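The Notch genes described here are 10 human genes of one signaling pathway, taken by name from a table of 30331 genes: the receptors NOTCH1, NOTCH2 and NOTCH3, the ligands JAG1, JAG2 and DLL1, and the target genes HES1, HEY1, HEY2 and NRARP. They were measured in ZR751 breast tumors grown in mice and treated with a CDK4 inhibitor until resistant, treated briefly, or given vehicle. Notch receptors sit in the cell membrane and are switched on by ligands on a neighboring cell. Ligand binding lets an ADAM protease and then gamma-secretase cut the receptor, and the freed intracellular part joins the DNA-binding protein RBPJ in the nucleus and turns on target genes. In the breast the pathway is known for its part in the choice between luminal and basal fates and in mammary tumors.

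ZR751 is a hormone receptor-positive, HER2-negative human breast cancer line, here implanted under the skin of female NSG mice, a strain that lacks T, B and NK cells. Resistant tumors (5 mice) came from mice dosed by mouth with atirmociclib, labelled PF-07220060, which blocks CDK4, a kinase of the cell cycle; the dose was 60 mg/kg, given 2 times daily for 84 to 91 days, with a time label of 2040 hours. Sensitive tumors (3 mice) came from mice given the same dose for 3 days, and vehicle tumors (5 mice) from mice given vehicle for 3 days, under a treatment label that reads DMSO. The 2 daily doses of drug were 7 hours apart. For every group the time after the last dose is given as 3 hours and the tumor volume as 150 mm3. The resistant mice belonged to a separate study that has no vehicle mice among these samples, so study, duration of treatment and resistance cannot be told apart where they are compared. The batch label is 1 for every sample, and the age of the mice and the genotype of the line beyond its name are not stated in the labels.

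Values are TPM, in which read numbers are divided by transcript length and scaled to a fixed total, so levels can be compared between genes. Each mouse gave 2 libraries, A and B, and a mouse's level below is their mean. The log2 values of A and B correlated at 0.989 to 0.994 across genes, which are not independent replicates. Between 16914 and 17662 genes were above 0 in a library, and the depth is unknown because the table has no counts. The luminal markers ESR1, GATA3, FOXA1, KRT8, KRT18, KRT19 and EPCAM were all present, with a summed level of 9484 to 12915 TPM in resistant, 6562 to 8879 TPM in sensitive and 7173 to 11211 TPM in vehicle tumors. The endothelial markers PECAM1, CDH5, VWF, KDR, TEK and TIE1, whose cells also use Notch, summed to at most 0.690 TPM in any mouse, and none of the 6 passed the filter on low values. These are human genes in tumors grown in mice, and how mouse reads were handled is not stated. The sum therefore cannot tell how much mouse endothelium the tumors held.

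In vehicle tumors HES1 had the highest level of the 10 genes, at a mean of 64.3 TPM, followed by NOTCH2 at 60.1, NOTCH3 at 45.3, JAG2 at 37.5, NOTCH1 at 12.2, NRARP at 11.4, DLL1 at 5.77, JAG1 at 1.83, HEY2 at 1.195 and HEY1 at 0.356 TPM (n = 5). Neighbors in this order overlapped between mice for HES1 and NOTCH2, NOTCH2 and NOTCH3, NOTCH1 and NRARP, and JAG1 and HEY2, and did not overlap otherwise. In resistant tumors the order was NOTCH2 at 80.3, HES1 at 64.4, JAG2 at 42.4, NOTCH3 at 26.5, DLL1 at 9.17, NOTCH1 at 6.23, NRARP at 4.22, JAG1 at 4.03, HEY2 at 0.646 and HEY1 at 0.311 TPM (n = 5). There the overlapping neighbors were NOTCH2 and HES1, HES1 and JAG2, NRARP and JAG1, and HEY2 and HEY1. In sensitive tumors HES1 (70.8 TPM) and NOTCH2 (69.8 TPM) overlapped, as did JAG2 (50.01 TPM) and NOTCH3 (43.7 TPM), and NRARP (9.49 TPM), DLL1 (9.20 TPM) and NOTCH1 (9.19 TPM). JAG1 (2.38 TPM), HEY2 (1.15 TPM) and HEY1 (0.433 TPM) followed in that order without overlap (n = 3).

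**Figure D1:**
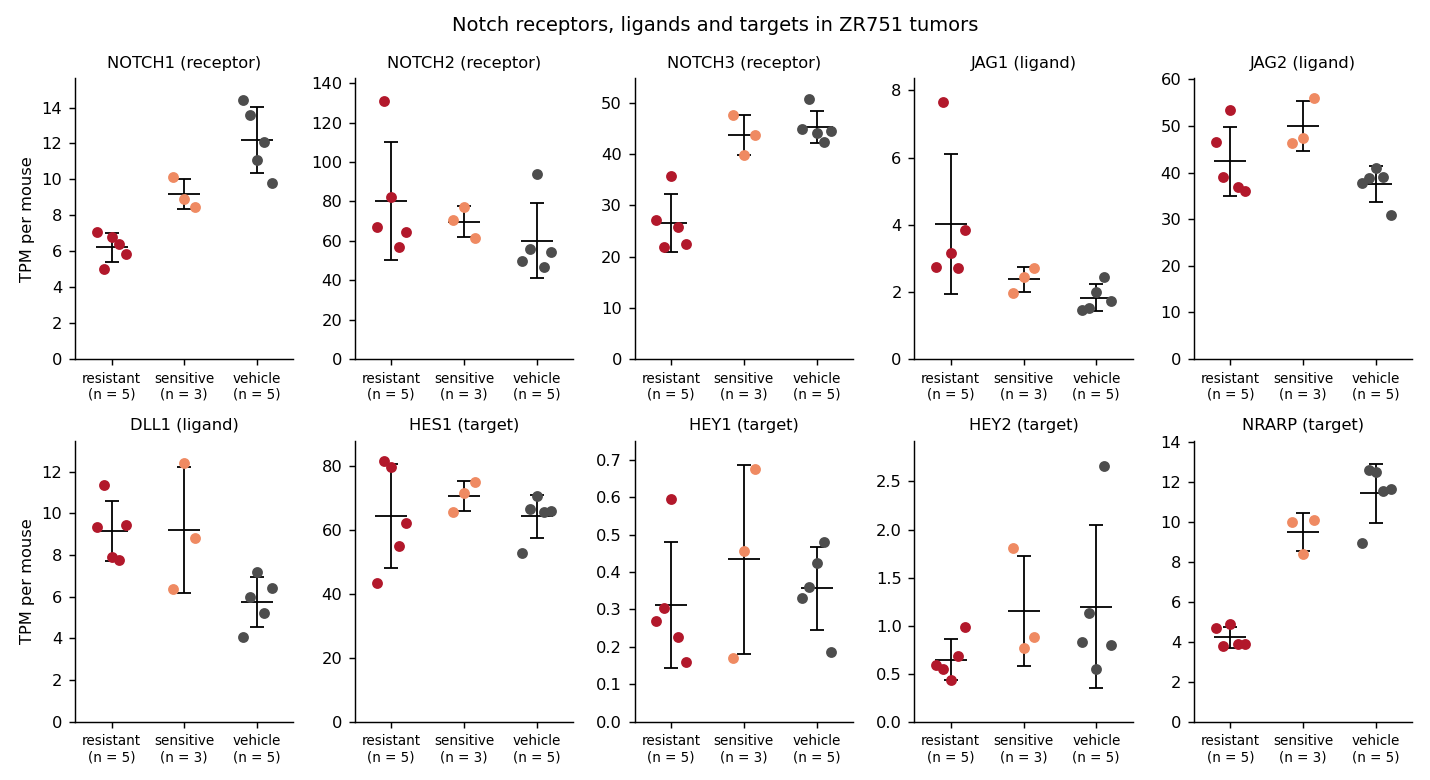
Level of each of the 10 Notch genes in TPM (y axis, from 0) in resistant, sensitive and vehicle tumors; each point is 1 mouse, and the bars are the mean ± SD over mice. NOTCH1, NOTCH3 and NRARP have every resistant mouse below every vehicle mouse, and JAG1 and DLL1 have every resistant mouse above every vehicle mouse.

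The comparison of resistant with vehicle tumors asks how far tumors that had outlasted the drug stood from tumors that never received it. Of the 9 Notch genes that passed the filter, NOTCH1, NOTCH3 and NRARP were lower and JAG1 and DLL1 were higher, and the mice of the groups did not overlap for these 5. NOTCH2, JAG2, HES1 and HEY2 were not called. Calls are at an adjusted p under 0.05 in a limma model over all 14079 genes tested. The same call was made for 44.0% of all genes tested, of which 11.6% of genes tested were higher and 32.4% lower, and groups did not overlap for 27.3%. The share of calls that were higher was 26.3%, against 51.0% after median-of-ratios scaling and 45.6% after quantile normalization. Because these scalings shifted the all-gene median by up to 0.13, log2 changes are given relative to that median (-0.14 for this comparison). They are on the log2(TPM + 1) scale, which understates the change of low genes. The adjusted p tests the change before the median was taken off. As the median was negative in every comparison, lower genes were called more readily, and higher genes less readily, than the printed changes imply. The median over the 9 tested Notch genes was 0.11. HEY2 counts among these 9 here and below, although the filter admitted it only through sensitive and vehicle mice.

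Resistant tumors were set against sensitive tumors to ask what differed between mice on the drug for a long and a short time. NOTCH1, NOTCH3 and NRARP were lower in resistant tumors, and none of the other 6 tested genes was called. Over all genes 21.1% were called, 9.56% higher and 11.6% lower, and the groups did not overlap for 30.4%, against 4 of the 9 Notch genes. The share of calls that were higher was 45.2%, and 56.2% after median-of-ratios scaling. In sensitive against vehicle tumors, the comparison of 3 days of drug with none, JAG2 was the single Notch gene called, and it was higher. There 15.7% of all genes were called, 3.16% higher and 12.6% lower, and the groups did not overlap for 21.7%, against 1 of the 9 Notch genes. The share of calls that were higher was 20.1%, against 42.0% after median-of-ratios scaling and 48.7% after quantile normalization. The median of the 9 Notch genes was -0.20 for resistant against sensitive and 0.21 for sensitive against vehicle, after the medians of all genes (-0.05 and -0.07) were taken off. The comparisons share mice, so each gene's values are given side by side below.

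**Figure D2:**
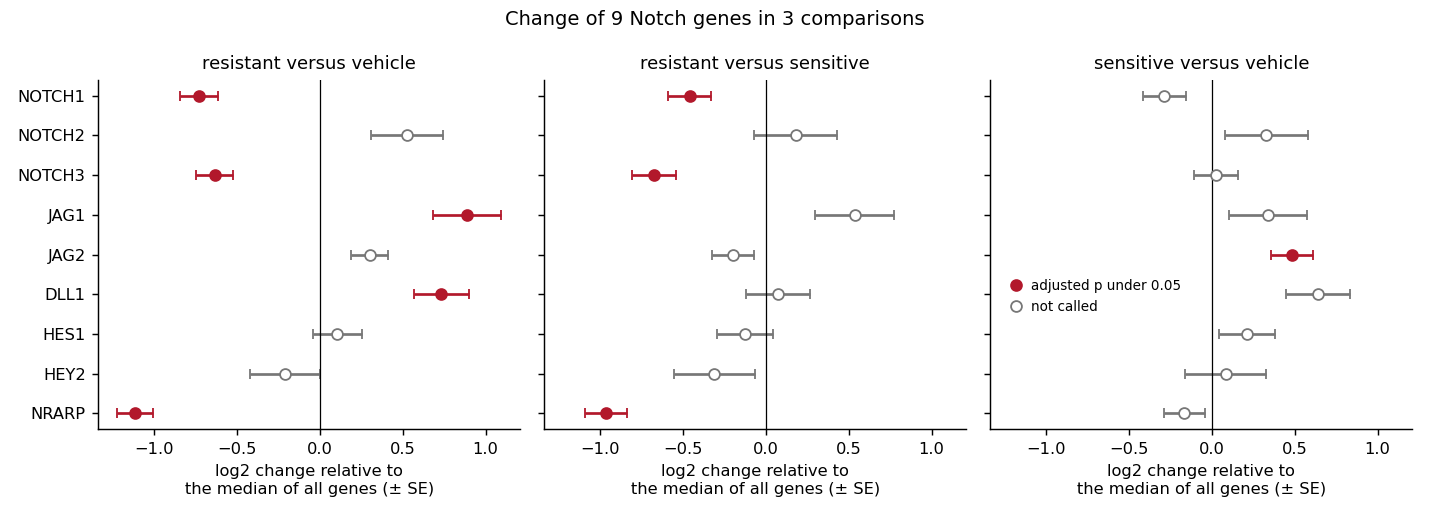
Log2 change of the 9 tested Notch genes relative to the median of all genes (x axis) in resistant versus vehicle, resistant versus sensitive and sensitive versus vehicle tumors; points are estimates, bars are ± SE, and filled points have an adjusted p under 0.05. NRARP, NOTCH1 and NOTCH3 lie left of 0 as filled points in both comparisons of resistant tumors.

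Among the receptors, NOTCH1 (GRCh38 chromosome 9, 136494433 to 136545786), the family member most often mutated in leukemia, had 7.08, 5.04, 6.78, 6.42 and 5.84 TPM in the resistant mice, 10.1, 8.94 and 8.48 TPM in the sensitive mice and 14.4, 13.6, 11.1, 12.1 and 9.82 TPM in the vehicle mice. Every resistant mouse was below every other mouse, while the highest sensitive mouse was above the lowest vehicle mouse. NOTCH1 fell by 0.73 ± 0.11 in resistant against vehicle tumors (SE, adjusted p = 6.56e-05, lower in 5 of 5 mice) and by 0.46 ± 0.13 in resistant against sensitive tumors (adjusted p = 0.0162). The second call ended without sensitive mouse 6-4 (adjusted p = 0.0783) or 6-5 (adjusted p = 0.0507), and its adjusted p ranged from 0.00942 to 0.0783 over 25 alternatives. Sensitive tumors were not called against vehicle tumors, at -0.29 ± 0.13 (adjusted p = 0.0767). In these bulk samples, fewer cells with the transcript and less transcript per cell cannot be told apart.

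NOTCH3 (chromosome 19, 15159038 to 15200981), a receptor known for its place in vascular smooth muscle and in luminal breast cells, had 27.1, 21.8, 35.7, 25.7 and 22.3 TPM in the resistant mice, 47.6, 39.7 and 43.8 TPM in the sensitive mice and 45.0, 50.6, 44.0, 42.3 and 44.6 TPM in the vehicle mice. The resistant mice lay below all others, and the sensitive and vehicle mice overlapped. NOTCH3 fell by 0.64 ± 0.11 in resistant against vehicle tumors (SE, adjusted p = 1.64e-04) and by 0.68 ± 0.13 in resistant against sensitive tumors (adjusted p = 0.00258). The value for sensitive against vehicle tumors was 0.02 ± 0.13 (adjusted p = 0.836), and its sign changed with the processing.

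NOTCH2 (chromosome 1, 119911553 to 120069626), the receptor with the highest level here, had 67.1, 131, 82.2, 56.7 and 64.4 TPM in the resistant mice, 70.6, 77.1 and 61.6 TPM in the sensitive mice and 49.8, 55.7, 93.8, 46.8 and 54.4 TPM in the vehicle mice. The groups overlapped, with resistant mouse 9-6 and vehicle mouse 1-5 above the rest of their groups. NOTCH2 was not called in resistant against vehicle tumors, at 0.52 ± 0.22 (SE, adjusted p = 0.161), and these 2 mice decide its size. It was 0.33 (adjusted p = 0.404) without mouse 9-6, and 0.68 and called (adjusted p = 0.0301) without mouse 1-5, the lowest adjusted p of 26 alternatives. NOTCH2NL, a partial copy of NOTCH2 nearly identical to it in sequence, followed the same mice, with 36.1, 87.0, 62.1, 30.2 and 35.0 TPM in resistant, 39.5, 37.3 and 38.5 TPM in sensitive and 27.1, 32.5, 62.4, 30.1 and 33.0 TPM in vehicle mice. How reads were divided between these copies is not stated, which leaves the level of NOTCH2 uncertain. With the TPM of both summed, the change in resistant against vehicle tumors was 0.53 (adjusted p = 0.193).

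As a share of the summed TPM of the 3 receptors, NOTCH2 made up 66.3, 83.0, 65.9, 63.8 and 69.5% in the resistant mice, 55.0, 61.3 and 54.1% in the sensitive mice and 45.6, 46.5, 63.0, 46.3 and 50.01% in the vehicle mice. Every resistant mouse had a larger NOTCH2 share than every other mouse, with vehicle mouse 1-5 nearest at 63.0% and resistant mouse 9-8 at 63.8%. NOTCH1 and NOTCH3 together had 26.8 to 42.5 TPM in resistant, 48.6 to 57.8 TPM in sensitive and 54.3 to 64.2 TPM in vehicle mice. The sum of all 3 receptors overlapped between the groups, at 88.8 to 158 TPM in resistant, 114 to 128 TPM in sensitive and 101 to 149 TPM in vehicle mice. These shares are descriptions with no test, and they carry the uncertainty of NOTCH2.

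**Figure D3:**
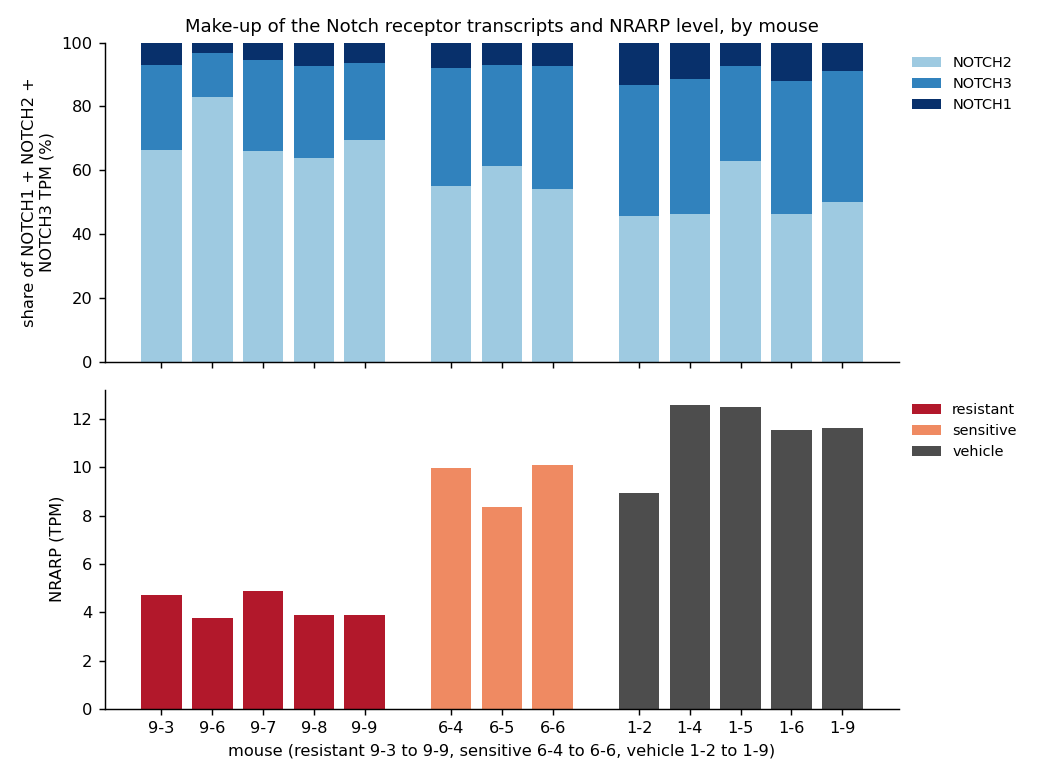
Upper panel: share of NOTCH2, NOTCH3 and NOTCH1 in the summed TPM of the 3 receptors (%), by mouse; lower panel: level of the target gene NRARP in TPM, by mouse, with bars from 0. The NOTCH2 share is 63.8 to 83.0% in the 5 resistant mice, and NRARP is at most 4.88 TPM there, against at least 8.38 TPM in all other mice.

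Among the ligands, JAG2 (chromosome 14, 105140981 to 105168824), a Jagged ligand, was the most abundant, with 46.6, 39.0, 53.4, 36.9 and 36.0 TPM in the resistant mice, 46.4, 47.5 and 56.1 TPM in the sensitive mice and 37.7, 39.0, 40.9, 39.1 and 30.9 TPM in the vehicle mice. All 3 sensitive mice were above all vehicle mice, and the resistant mice spanned both. JAG2 rose by 0.48 ± 0.13 in sensitive against vehicle tumors (SE, adjusted p = 0.0452). That call ended in 11 of 25 alternatives (range 0.00699 to 0.209): with no filter on low values, with the A libraries alone, and without mouse 1-2, 1-4, 1-6, 1-9, 6-4, 6-5, 6-6, 9-3 or 9-6, where the adjusted p was 0.0515 to 0.209. In resistant against vehicle tumors JAG2 was not called (0.30 ± 0.11, adjusted p = 0.244), except after median-of-ratios scaling (adjusted p = 0.0483; range 0.0483 to 0.545).

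JAG1 (chromosome 20, 10637684 to 10673999), the other Jagged ligand, was low, with 2.73, 7.65, 3.17, 2.73 and 3.85 TPM in the resistant mice, 1.98, 2.45 and 2.71 TPM in the sensitive mice and 1.46, 1.51, 1.99, 2.45 and 1.74 TPM in the vehicle mice. Every resistant mouse was above every other mouse, mouse 9-6 by far and mice 9-3 and 9-8 barely, and the sensitive and vehicle mice overlapped. JAG1 rose by 0.89 ± 0.21 in resistant against vehicle tumors (SE, adjusted p = 0.00949). Without mouse 9-6 the change was 0.67 (adjusted p = 0.00883), and the adjusted p ranged from 0.00223 to 0.0346 over 24 alternatives. Libraries A and B of 1 mouse differed by up to 0.61 on the log2 scale for this gene. In resistant against sensitive tumors JAG1 was not called (0.53 ± 0.24, adjusted p = 0.158), and without mouse 9-6 the value was 0.31 (adjusted p = 0.253). The mice of these groups were separated by 2.725 TPM in resistant mouse 9-8, whose libraries had 1.95 and 3.50 TPM, against 2.71 TPM in sensitive mouse 6-6. Resistant mouse 9-3 was next, at 2.735 TPM, with libraries at 3.16 and 2.31 TPM.

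DLL1 (chromosome 6, 170282206 to 170306565), a Delta-like ligand known from mammary stem cells of mice, had 9.37, 11.3, 7.92, 7.79 and 9.44 TPM in the resistant mice, 6.36, 12.4 and 8.84 TPM in the sensitive mice and 4.04, 5.98, 7.20, 5.21 and 6.4 TPM in the vehicle mice. The resistant mice were above the vehicle mice, and the sensitive mice overlapped both groups. DLL1 rose by 0.73 ± 0.17 in resistant against vehicle tumors (SE, adjusted p = 0.0109; range over 25 alternatives 0.00265 to 0.0311). Sensitive tumors had a change of 0.64 ± 0.19 against vehicle tumors that was not called (adjusted p = 0.0611), and 7 of 25 alternatives called it (range 0.00607 to 0.329), among them the fits without mouse 1-5 (adjusted p = 0.0387) and without mouse 6-4 (adjusted p = 0.0160). The level of DLL1 between resistant and sensitive tumors differed by 0.08 ± 0.19 (adjusted p = 0.928), and the sign changed with the processing. JAG2 made up 67.3 to 82.8% of the summed TPM of the 3 ligands in resistant, 76.2 to 84.8% in sensitive and 79.2 to 87.3% in vehicle mice, and the groups overlapped.

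The 4 target genes encode proteins that act on transcription or on Notch itself. HES1, HEY1 and HEY2 are repressors of the basic helix-loop-helix class, and NRARP is an ankyrin-repeat protein that binds the Notch complex and limits it, so it serves as a feedback inhibitor. The sequences upstream of NRARP, HES1 and HEY2 are shown because NRARP was called in both comparisons of resistant tumors and HES1 and HEY2 in none. They are the 250 bases before the RefSeq transcription start (GRCh38.p14), written 5′ to 3′ on the strand of the gene, with capitals marking TGGGAA or its reverse complement TTCCCA, the core that RBPJ binds; NRARP lies at chr9:137302272-137302521 (minus strand), HES1 at chr3:194135898-194136147 (plus strand) and HEY2 at chr6:125749382-125749631 (plus strand).
NRARP: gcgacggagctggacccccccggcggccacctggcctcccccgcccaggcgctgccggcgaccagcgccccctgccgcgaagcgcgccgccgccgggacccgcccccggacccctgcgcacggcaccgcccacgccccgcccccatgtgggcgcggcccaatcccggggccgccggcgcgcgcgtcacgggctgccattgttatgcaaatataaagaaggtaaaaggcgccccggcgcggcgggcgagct
HES1: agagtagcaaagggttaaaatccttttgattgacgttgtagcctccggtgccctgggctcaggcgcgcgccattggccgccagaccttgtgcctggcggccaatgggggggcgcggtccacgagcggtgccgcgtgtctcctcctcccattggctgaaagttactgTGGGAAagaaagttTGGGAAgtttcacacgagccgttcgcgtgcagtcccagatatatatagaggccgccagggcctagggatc
HEY2: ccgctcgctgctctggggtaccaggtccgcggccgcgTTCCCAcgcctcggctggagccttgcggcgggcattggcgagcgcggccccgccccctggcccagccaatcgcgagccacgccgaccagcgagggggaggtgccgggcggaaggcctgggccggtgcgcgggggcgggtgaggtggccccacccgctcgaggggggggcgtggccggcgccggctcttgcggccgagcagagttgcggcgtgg

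HES1 held 2 matches, 84 and 70 bases before the start, on the plus strand and close together, and NRARP held none in this window. HEY2 held 1 match on the reverse strand, 213 bases before the start, and a second that spans the start and is not in the printed stretch. The RefSeq start of HEY2 lies within the gene span given for it below, so its printed window is inside that span. Over 35116 RefSeq promoters, from 250 bases before to 50 bases after the start and searched on both strands, 24.0% held TGGGAA and 3.80% held it 2 or more times. The promoters of NOTCH1, NOTCH2, NOTCH3, JAG1 and JAG2 held none. The motif CACNAG, the N box bound by HES proteins, was found 4 times at HES1, 2 times at NOTCH1, once each at NRARP, NOTCH2 and NOTCH3, and not at JAG1, JAG2 or HEY2, against 38.03% of all promoters with at least 1. No match of one motif overlapped a match of the other, and a match describes letters, not a bound site. Promoter entries matched 8 of the 10 genes; DLL1 and HEY1 had none.

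NRARP (chromosome 9, 137300482 to 137302251) showed the largest change of the 9 tested genes in both comparisons of resistant tumors. It had 4.71, 3.77, 4.88, 3.87 and 3.89 TPM in the resistant mice, 9.99, 8.38 and 10.1 TPM in the sensitive mice and 8.94, 12.6, 12.5, 11.5 and 11.6 TPM in the vehicle mice. The highest resistant mouse was far below the lowest of the other mice, and vehicle mouse 1-2 alone of its group lay within the sensitive range. NRARP fell by 1.11 ± 0.11 in resistant against vehicle tumors (SE, adjusted p = 2.53e-06; range over alternatives 7.37e-09 to 2.58e-05) and by 0.96 ± 0.13 in resistant against sensitive tumors (adjusted p = 2.84e-04). Sensitive against vehicle tumors gave -0.17 ± 0.13 (adjusted p = 0.214), and -0.25 (adjusted p = 0.0802) without mouse 1-2.

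HES1 (chromosome 3, 194136145 to 194138732), a widely used readout of Notch activity, had 43.4, 81.7, 79.8, 54.9 and 62.1 TPM in the resistant mice, 65.7, 71.5 and 75.02 TPM in the sensitive mice and 52.8, 66.6, 70.5, 65.5 and 66.0 TPM in the vehicle mice. The resistant mice spread below and above the other groups, with an SD of 16.4 TPM against 4.69 TPM in sensitive and 6.69 TPM in vehicle mice. HES1 was not called in resistant against vehicle (0.11 ± 0.15, SE, adjusted p = 0.881), resistant against sensitive (-0.12 ± 0.17, adjusted p = 0.503) or sensitive against vehicle tumors (0.21 ± 0.17, adjusted p = 0.618).

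HEY2 (chromosome 6, 125747664 to 125761269) had 0.590, 0.545, 0.430, 0.680 and 0.985 TPM in the resistant mice, 1.81, 0.770 and 0.880 TPM in the sensitive mice and 0.830, 1.14, 0.545, 2.67 and 0.800 TPM in the vehicle mice. All groups overlapped, and the values are near the filter. Only vehicle mice 1-4 and 1-6 and sensitive mouse 6-4 reached 1 TPM, so HEY2 passed the filter through these groups alone. A lower level in resistant tumors was thus built into its being tested, and its values there lend no support. With no filter they were -0.31 (adjusted p = 0.245) in resistant against vehicle and -0.35 (adjusted p = 0.381) in resistant against sensitive tumors. HEY2 was not called in any comparison, at -0.21 ± 0.21 (SE, adjusted p = 0.199) in resistant against vehicle, -0.31 ± 0.24 (adjusted p = 0.320) in resistant against sensitive and 0.08 ± 0.24 (adjusted p = 0.983) in sensitive against vehicle tumors. HEY1 (chromosome 8, 79764010 to 79767863) stayed below the filter in every mouse, at 0.160 to 0.595 TPM in resistant, 0.170 to 0.675 TPM in sensitive and 0.185 to 0.480 TPM in vehicle mice. With no filter its adjusted p values were 0.737, 0.561 and 0.802 for resistant against vehicle, resistant against sensitive and sensitive against vehicle tumors. The depth behind these low values is unknown.

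The summed level of basal markers had its lowest median in resistant tumors (5.3 TPM) and its highest in sensitive tumors (29.5 TPM), against 15.9 TPM in vehicle tumors. The summed TPM of KRT5, KRT14, KRT17, TP63, MME and OXTR was 3.26 to 6.49 in resistant, 15.6 to 33.4 in sensitive and 6.97 to 20.7 in vehicle mice, with no resistant mouse in the range of the others. KRT14, KRT17 and OXTR made up most of it and were the 3 of 6 that passed the filter, while KRT5, TP63 and MME were at or under 0.700 TPM in every mouse. The immune markers PTPRC, CD68, CD14 and CD3E summed to 4.84 to 11.03 TPM in resistant, 3.53 to 6.46 TPM in sensitive and 2.60 to 5.12 TPM in vehicle mice, with CD68 the main contributor, CD3E at 0 in every library and PTPRC at most 0.0150 TPM. The fibroblast and pericyte markers COL1A1, COL1A2, COL3A1, PDGFRB, DCN, LUM and RGS5, of a cell type that also uses NOTCH3, summed to 7.14 to 12.045 TPM in resistant, 8.14 to 11.4 TPM in sensitive and 9.24 to 15.3 TPM in vehicle mice, with DCN at most 0.0700 TPM and PDGFRB at most 0.115 TPM. As human genes in tumors grown in mice, the immune, fibroblast and pericyte markers cannot tell how many host cells the tumors held. The part of these marker differences in the Notch results was not tested.

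A list of 53 other Notch pathway genes was examined by role, of which 43 passed the filter. In resistant against vehicle tumors 4 were higher and 12 lower, with a median change of 0.02, and 16 of 43 called is 37.2%, against 44.0% of all genes. In resistant against sensitive tumors 1 was higher and 9 lower (23.3%, median -0.10), and in sensitive against vehicle tumors 3 were higher and 3 lower (13.95%, median 0.10). These shares, which count both directions, are near those of all genes in each comparison. By direction, all genes had 11.6% higher and 32.4% lower in resistant against vehicle tumors. They had 9.56% higher and 11.6% lower in resistant against sensitive, and 3.16% higher and 12.6% lower in sensitive against vehicle tumors. Differences from these shares were not tested, and the lower genes in both comparisons of resistant tumors include DLL3, discussed below.

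The nuclear complex is RBPJ with its coactivators and corepressors. Of its 14 tested genes, 7 were lower and none higher in resistant against vehicle tumors, beside 32.4% lower and 11.6% higher over all genes. Called in either direction were 50%, near the 44.0% of all genes, and the difference was not tested. RBPJ itself had 23.8, 23.9, 23.8, 22.4 and 25.1 TPM in the resistant mice, 29.6, 29.1 and 27.6 TPM in the sensitive mice and 29.7, 30.1, 28.5, 29.8 and 34.1 TPM in the vehicle mice, so that all resistant mice lay below all others, and it fell by 0.20 (adjusted p = 8.68e-04). TLE2, a Groucho-type corepressor, had 18.2 to 26.6 TPM in resistant, 34.1 to 39.8 TPM in sensitive and 30.4 to 38.4 TPM in vehicle mice and fell by 0.53 (adjusted p = 2.26e-04). SPEN, a large corepressor that binds RBPJ, fell by 0.36 (adjusted p = 4.96e-04), and SNW1, also called SKIP, a splicing factor that binds the RBPJ complex, by 0.18 (adjusted p = 2.42e-04). In resistant against sensitive tumors 6 of the 14 were lower (42.9%) and none higher, beside 11.6% lower and 21.1% called over all genes, a difference that was not tested. They include TLE2 at -0.75 (adjusted p = 8.09e-04), SPEN at -0.48 (adjusted p = 0.00309), the coactivator MAML1 at -0.36 (adjusted p = 0.00693) and its relative MAML3 at -0.56 (adjusted p = 0.0138). The MAML3 call ended without mouse 6-5 (adjusted p = 0.0722). MAML3 had 2.295 to 4.39 TPM in resistant, 4.68 to 6.45 TPM in sensitive and 3.045 to 3.82 TPM in vehicle mice. Its resistant mice thus overlapped the vehicle mice, and the sensitive mice lay above both.

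In sensitive against vehicle tumors the nuclear genes went in both directions. The corepressor TLE1 had 16.8 to 20.1 TPM in sensitive and 25.96 to 40.3 TPM in vehicle mice, without overlap, and fell by 0.65 (adjusted p = 0.00280). The resistant mice, at 17.85 to 24.8 TPM, were also below all vehicle mice, and TLE1 was not called in resistant against sensitive tumors (adjusted p = 0.443). MAML3 was higher by 0.65 (adjusted p = 0.0212), a call that ended with the A libraries alone (adjusted p = 0.117) and without mouse 6-5 (adjusted p = 0.125) or 6-6 (adjusted p = 0.0922). SNW1 was lower, at -0.12 (adjusted p = 0.0386), and lost its call in 11 of 25 alternatives, with adjusted p values of 0.0534 to 0.482 there, both scalings and the fits without mouse 1-2, 1-4, 1-9, 6-5, 6-6 or 9-3 among them.

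Of 5 tested genes for enzymes that process the receptor or add sugars to it, 3 were higher and none lower in resistant against vehicle tumors, beside 11.6% higher and 44.0% called over all genes, and none was called in resistant against sensitive tumors. LFNG, the Lunatic Fringe sugar transferase that changes which ligands a receptor answers to, had 112 to 181 TPM in resistant, 121 to 192 TPM in sensitive and 65.1 to 118 TPM in vehicle mice. It rose by 0.71 in resistant tumors (adjusted p = 0.0110) and by 0.80 in sensitive tumors (adjusted p = 0.0193), both against vehicle, and the second call ended without mouse 6-5 (adjusted p = 0.130) or 6-6 (adjusted p = 0.0605). Its relative RFNG rose by 0.48 (adjusted p = 0.00136) and FURIN, the convertase that matures the receptor, by 0.59 (adjusted p = 0.0139) in resistant against vehicle tumors, and neither was called in the other comparisons. FURIN had 31.7 to 60.2 TPM in resistant, 35.5 to 38.1 TPM in sensitive and 25.7 to 33.1 TPM in vehicle mice. Resistant mouse 9-9 lay within the vehicle range, and without mouse 9-7, the highest, the change was 0.47. Of 7 genes for the cleaving enzymes, 2 (28.6%) were lower in resistant against vehicle tumors, under the 32.4% of all genes that were lower, and by small amounts: the protease ADAM17 at -0.22 (adjusted p = 0.00283) and its relative ADAM10 at -0.13 (adjusted p = 0.00978). ADAM10 was not called under median-of-ratios scaling (adjusted p = 0.127), under quantile normalization (adjusted p = 0.134) or in the B libraries alone (adjusted p = 0.0829). In resistant against sensitive tumors ADAM17 was lower, at -0.40 (adjusted p = 0.00477). PSENEN, a gamma-secretase subunit, was higher there, at 0.39 (adjusted p = 0.0189, or 0.0689 without mouse 6-5 and 0.0673 without mouse 6-6). It had 305 to 334 TPM in resistant, 243 to 266 TPM in sensitive and 270 to 377 TPM in vehicle mice. The resistant mice thus lay within the vehicle range, and the sensitive mice below it.

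**Figure D4:**
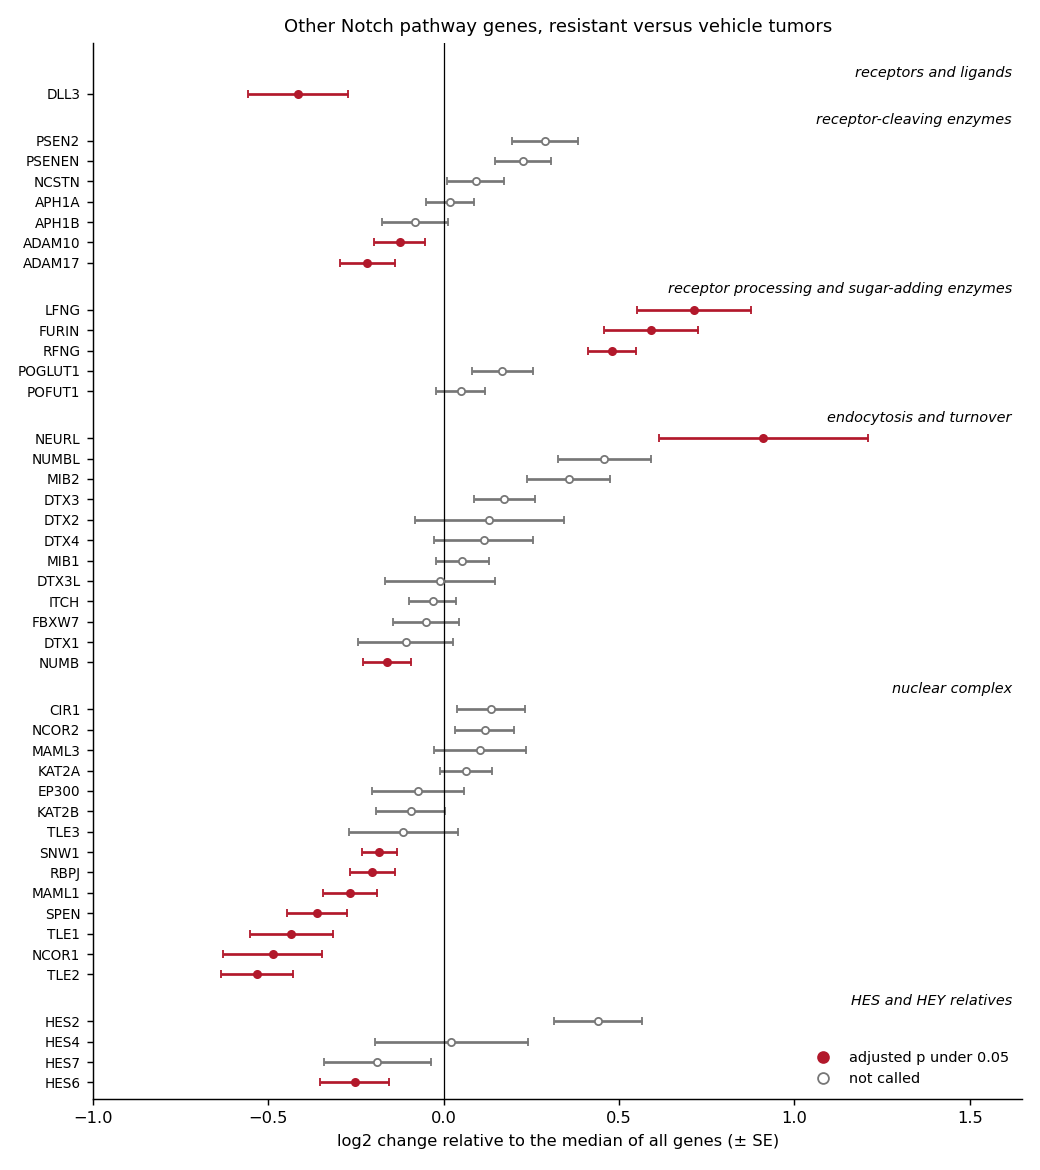
Log2 change of the 43 tested other Notch pathway genes in resistant versus vehicle tumors relative to the median of all genes (x axis), grouped by role; points are estimates, bars are ± SE, and filled points have an adjusted p under 0.05. The filled points of the nuclear complex all lie below 0, and those of the receptor processing and sugar-adding enzymes all lie above 0.

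The remaining calls were few. NEURL (NEURL1), a ubiquitin ligase that helps ligand uptake, had 6.83 to 11.1 TPM in resistant, 5.92 to 18.5 TPM in sensitive and 2.71 to 9.99 TPM in vehicle mice, was higher by 0.91 in resistant (adjusted p = 0.0477) and by 1.28 in sensitive tumors (adjusted p = 0.0294) against vehicle, and lost these calls in 14 and 8 of 25 alternatives. NUMB, an inhibitor of Notch that guides its endocytosis, was lower in resistant tumors against both sensitive (-0.32, adjusted p = 0.00630) and vehicle tumors (-0.16, adjusted p = 0.00332), and the second was not made under quantile normalization (adjusted p = 0.0509) or median-of-ratios scaling (adjusted p = 0.0624). DLL3, a ligand known to inhibit Notch within the cell, had 0.205 to 0.770 TPM in resistant, 0.930 to 1.785 TPM in sensitive and 1.00 to 1.53 TPM in vehicle mice. It passed the filter only through sensitive and vehicle mice, so a lower level in resistant tumors was built into its being tested, and its calls lend no support. The values were -0.42 against vehicle (adjusted p = 0.00689) and -0.60 against sensitive tumors (adjusted p = 0.0147), where the call ended with the A libraries alone (adjusted p = 0.0618) and without mouse 6-5 (adjusted p = 0.0664) or 6-6 (adjusted p = 0.0678). With no filter they were -0.52 (adjusted p = 0.00662) and -0.64 (adjusted p = 0.0153). HES6, a relative of HES1 known to counter it, was lower against vehicle in resistant (-0.25, adjusted p = 0.00639) and sensitive tumors (-0.35, adjusted p = 0.0231), and neither was called under quantile normalization (adjusted p = 0.0598 and 0.0976) or median-of-ratios scaling (adjusted p = 0.0812 and 0.0836). The call of HES6 in sensitive tumors also ended with the A libraries alone (adjusted p = 0.104) and without mouse 6-4, 6-5 or 6-6 (adjusted p = 0.0527, 0.103 and 0.0608). Resistant mouse 9-7, at 52.8 TPM of HES6, lay within the vehicle range of 49.3 to 59.7 TPM. The other resistant mice, at 33.3 to 39.8 TPM, lay below it.

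The genes whose level followed that of the most abundant member of each role over the 13 mice were taken by Pearson's r of log2(TPM + 1), as a description in which the groups and the libraries are shared. They were NOTCH2NL (0.946), RNF14 (0.937) and ZNRF1 (0.934) for NOTCH2, ESPN (0.885), DUS3L (0.878) and CCDC85B (0.854) for JAG2, and SEMA4B (0.850), PTCHD2 (0.814) and TBC1D2 (0.796) for HES1.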

How the data were processed

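RNA was sequenced by the submitters from 13 tumors, 2 libraries each, 26 libraries in all. The authors deposited 1 table of TPM. FastQC, STAR, HTSeq, RSEM and the builds GRCh38 and GRCm38 are named without roles, per the submitters' processing notes. Neither the handling of mouse reads nor the step that made A and B is stated there. Without counts the depth is unknown, so no counting interval is given. Of 30332 entries, 1 without a gene name (1.49 to 5.51 TPM) was left out.

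From the deposited TPM, log2(TPM + 1) was averaged over A and B, so the mouse was the replicate. Genes with a mean of at least 1 TPM in at least 3 mice were kept (14079). One limma model with the trend option over 13 mice gave the 3 comparisons (limma 3.58.1, R 4.3.3; two-sided, Benjamini-Hochberg over all genes, called under 0.05). Errors of levels are SDs. Those of changes are SEs, which like the adjusted p were not altered by taking off the median. The adjusted p therefore tests the change before that step. The letters A and B label libraries of the same mouse and do not pair mice across groups.

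The 10 genes, the list of 53 and the marker lists were chosen with earlier results of these data known. A few genes are not reported here and were taken out of the lists and their counts, but not out of the model. Named are the 10 genes, called genes of the list (at most 4 per role and comparison by adjusted p), the 3 genes closest to the most abundant receptor, ligand and target, and the markers; NOTCH2NL and NEURL1B were named after their values were seen. Positions are from GENCODE 29 (GRCh38), promoters from RefSeq (GRCh38.p14). Alternatives were other pseudocounts (0.1), filters, scalings, libraries, weights and mice left out.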

Additional observations from a re-analysis of the deposited data

Results flagged for a closer look

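Of 20 groups of 5 mice tested for a single mouse far from the rest (Dixon's test at the 95% level), 5 were marked, while chance marks about 1 in 20. For JAG1, resistant mouse 9-6 had 7.65 TPM, against 2.73 to 3.85 TPM in the other 4 resistant mice. For NOTCH2, vehicle mouse 1-5 had 93.8 TPM, against 46.8 to 55.7 TPM in the rest of its group. For HES1, vehicle mouse 1-2 was low at 52.8 TPM, against 65.5 to 70.5 TPM. The same mouse was low for NRARP, at 8.94 TPM, against 11.5 to 12.6 TPM. For HEY2, vehicle mouse 1-6 had 2.67 TPM, against 0.545 to 1.14 TPM. The JAG1 and NRARP calls in resistant against vehicle tumors held without the marked mouse (adjusted p = 0.00883 and 2.01e-06).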

How the results depend on the processing

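The count of Notch genes called stayed between 4 and 6 in resistant against vehicle (5 in the main result) and between 2 and 3 in resistant against sensitive tumors (3), over 25 alternatives each. In sensitive against vehicle tumors (1) it was 0 with no filter and with the A libraries alone, 2 with median-of-ratios scaling and with quantile normalization, 3 with weights per mouse, and 0 to 2 with a mouse left out. With 26 libraries, fitted with a correlation between the libraries of a mouse, it was 2 both without and with a term for the letter. Neither of these fits changed a call in the other comparisons of the 9 tested genes. The other pathway genes called in sensitive against vehicle tumors (6) were 10 with quantile normalization, 12 with weights per mouse, 2 with the A libraries and 1 to 7 with a mouse left out, the lowest without mouse 6-5 or 6-6. In resistant against sensitive tumors (10) they were 6 to 13 with a mouse left out, the lowest without 6-5. Over all genes, without 6-5, 901 were called in sensitive against vehicle (2212 in all mice) and 1474 in resistant against sensitive tumors (2977), and weights per mouse gave 4413 and 4401. Signs changed only for changes that were not called. In sensitive against vehicle tumors NOTCH3 was -0.033 with no filter and -0.026 with weights (-0.0061 to 0.074 with a mouse left out), and HEY2 was -0.027 with quantile normalization and -0.19 with the B libraries (-0.035 to 0.19). In resistant against sensitive tumors DLL1 was -0.021 with weights and -0.032 with the A libraries (-0.16 to 0.32), HES1 ranged from -0.22 to 0.00030 and NOTCH2 from -0.020 to 0.29 with a mouse left out. The cause of these differences was not tested. HEY2 and JAG1 gave no value where a filter removed them. Without counts, the precision of the low genes JAG1, HEY1 and HEY2 is unknown.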

Other observations

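NEURL1B, a ubiquitin ligase that acts on Notch ligands and was named after its values were seen, had 4.91, 4.64, 4.54, 2.31 and 3.10 TPM in the resistant mice, 6.58, 8.34 and 5.32 TPM in the sensitive mice and 28.6, 30.9, 26.6, 31.5 and 30.8 TPM in the vehicle mice. The 3 groups did not overlap, and both treated groups were far below vehicle. It fell by 2.55 ± 0.16 in resistant (SE, adjusted p = 1.09e-07, limma) and by 1.93 ± 0.18 in sensitive tumors (adjusted p = 3.27e-06), both against vehicle. The difference of -0.63 ± 0.18 between resistant and sensitive tumors (adjusted p = 0.0184) was lost without mouse 6-4 (adjusted p = 0.0582) or 6-5 (adjusted p = 0.10025).

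The level of NRARP divided by that of HES1, a ratio also chosen after the values were seen and given with no test, was 0.108, 0.0461, 0.0612, 0.0706 and 0.0627 in the resistant mice, 0.152, 0.117 and 0.135 in the sensitive mice and 0.169, 0.189, 0.177, 0.176 and 0.176 in the vehicle mice. The 3 groups did not overlap. Vehicle mouse 1-2, low for both genes, had the lowest ratio of its group, at 0.169.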
